A study of Mus musculus with 6 samples.

Results

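Class II cytokine receptors are cell-surface receptors for interleukin-10, its relatives and the interferons. Each is built from a chain that binds the ligand and a partner chain, and each chain holds a Janus kinase that phosphorylates STAT transcription factors once the ligand has joined the chains. In blood-forming stem cells this family is best known for the interferon receptors, whose ligands draw quiescent stem cells into division, while interleukin-10 is best known as a brake on inflammation in macrophages. The genes described here are 9 of the 51826 in the deposited table, namely the 6 receptor chain genes Il10ra, Il10rb, Ifnar1, Ifnar2, Ifngr1 and Ifngr2, the kinase genes Jak1 and Tyk2, and the transcription factor gene Stat3. Il10ra was chosen by its expression values in these libraries, as a gene called between genotypes (adjusted p = 0.0308 in edgeR's quasi-likelihood test), so its difference is given as a description. The other 8 were taken as its family and signalling partners.

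RNA was sequenced from mouse bone marrow cells labelled CD34-KSL, a fraction that carries Kit and Sca-1 but neither lineage markers nor CD34 and is enriched for long-term stem cells. WT denotes the 2 wild-type libraries and KO the 4 libraries of the Elovl6 knockout, Elovl6 being an enzyme that elongates long-chain fatty acids. The labels give no strain, age, sex, allele or treatment for either group nor whether each library is a different animal. The p-values therefore rest on library-to-library spread, which may be technical. The comparison asks how loss of Elovl6 alters gene expression in these cells.

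Expression counts totalled 2121240 to 5137628 per library. Values are given as CPM, the usual depth-normalised read count, over library sizes scaled by edgeR's TMM method, in the order of WT replicates 1 and 2, then KO replicates 1 to 4. Elovl6 itself was at 30.6 and 38.3 CPM in WT and at 8.81 to 21.4 CPM in KO. Its log2 fold change of KO over WT was -1.12 (adjusted p = 0.346, edgeR), so the targeted gene was itself not called. Of the mapped reads, 22.0% and 27.9% in KO replicates 3 and 4 lay on CT010467.1, an rRNA gene in the annotation, against 11.4% to 14.8% in the other libraries. The stem cell receptor gene Kit was at 966 to 1444 CPM in all libraries, and 12 stem cell markers, Kit the most abundant of them, summed to 3086 to 3288 CPM in WT and 2275 to 3366 CPM in KO. Of the 11 markers tested, 9 had a log2 fold change below 0, with a median of -0.22, and 0 were called in edgeR. Over all genes tested, 51.0% had a log2 fold change above 0. Ly6a, which encodes the sort marker Sca-1, was at 64.7 and 75 CPM in WT and 33.3 to 51.3 CPM in KO. Vwf was at 169 and 171 CPM against 52.7 to 116 CPM, and Ctnnal1 at 41.6 and 34.9 CPM against 18.1 to 30.7 CPM. All 3 were lower in every KO library, with an unadjusted p under 0.05 in edgeR. Over all genes tested, 10.3% were lower in every KO library and 9.9% had such a p in either direction. Summed markers of the neutrophil and red cell lineages were highest in KO replicate 4, at 9151 and 2782 CPM against at most 1521 and 460 CPM elsewhere. Those of the B lineage were highest in KO replicate 1, at 927 CPM against at most 318 CPM.

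Of the 9 genes, Il10ra was the single one past an adjusted p of 0.05, where 0.159% of the 11969 genes tested were called, 0.0919% with KO higher and 0.0668% with KO lower. Il10ra was chosen for this call, so its part in the counts and medians over the 9 genes follows from that choice. All 9 passed the filter on low counts. The median log2 fold change of KO over WT in expression counts was 0.13 over the 9 genes and 0.008 over all genes tested. Of the other 8 genes, 0 were called in edgeR, in DESeq2 or in limma-voom, and 1, Ifngr2, had an unadjusted p under 0.05, as did 9.9% of all genes tested. For 3 of the 9, Il10ra, Il10rb and Ifngr2, the CPM ranges of the groups were separate, as they were for 20.3% of all genes tested. The separation of Il10rb did not hold for its unique or its total exon reads alone. KO was above WT in each of these 3, which held for 10% of all genes tested, and below in 0, which held for 10.3%.

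Il10ra encodes the chain of the interleukin-10 receptor that binds the ligand and carries Jak1. It lies on the minus strand of chromosome 9 at 45253837 to 45269149 (mm10; ENSMUSG00000032089). Its expression was 30.6 and 24.7 CPM in WT, and 75.6, 65.3, 68.1 and 59.2 CPM in KO. Every KO library stood well above both WT libraries, and the lowest of them was KO replicate 4. The WT mean was 27.7 ± 4.1 CPM (SD, n = 2), and the KO mean was 67.1 ± 6.8 CPM (SD, n = 4). On the log2 scale KO exceeded WT by 1.28 (SE 0.19) in expression counts, which is 2.43-fold with a 95% interval of 1.82 to 3.25. The authors' deposited table lists it with a fold of 2.42 (adjusted p = 0.0102). All of its exon reads (100%) were placed uniquely. In bulk RNA, a higher level per cell and more cells with the transcript cannot be told apart.

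**Figure D1:**
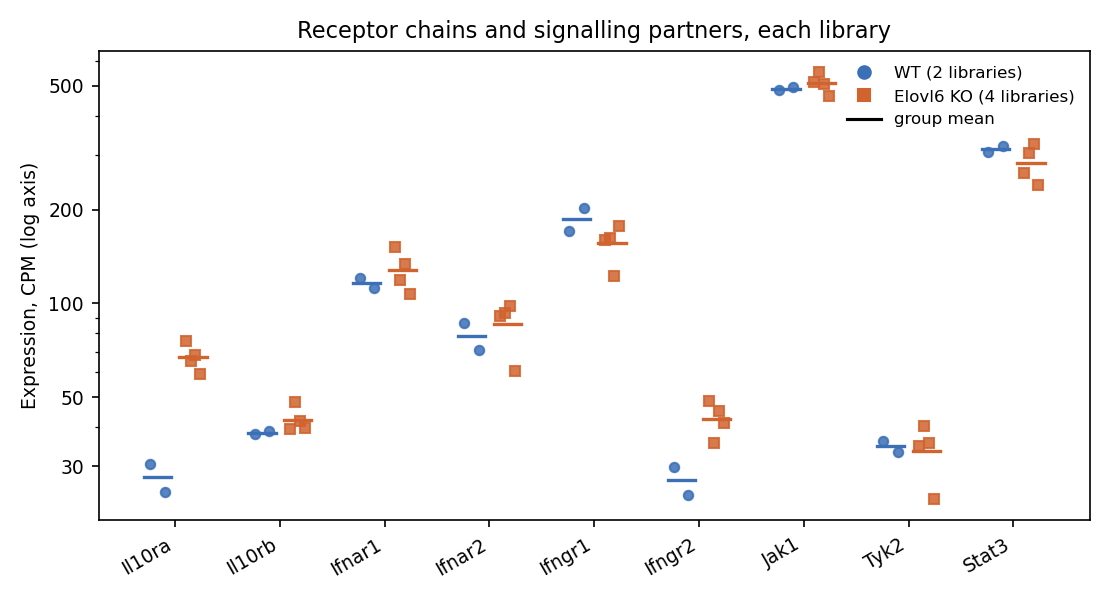
Expression of the 9 genes in each library, in CPM on a log axis. Circles are the 2 WT libraries, squares the 4 KO libraries and bars the group means. The squares of Il10ra, at 59.2 to 75.6 CPM, lie far above its circles, and those of Ifngr2 lie above its circles by less, while for most other genes both groups share a range.

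The size of the Il10ra difference did not rest on 1 library, but its call depended on which libraries were fitted. Its log2 fold change in expression counts ran from 1.13 without WT replicate 2 to 1.44 without WT replicate 1. The adjusted p in edgeR's quasi-likelihood test was 0.476 and 0.324 in these fits. It was 0.052, 0.0864 and 0.103 without KO replicates 1, 2 and 3, and 0.0248 without KO replicate 4. Leaving out KO replicates 3 and 4 together gave a log2 fold change of 1.36 (adjusted p = 0.0603).

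Intron reads, which come mostly from RNA not yet spliced, were a further readout of the same libraries. Il10ra had 6 and 12 uniquely placed intron reads in WT, and 53, 45, 55 and 24 in KO. In CPM of intron reads this was 1.51 and 2.92 in WT and 11.3, 6.90, 13.7 and 10.2 in KO, so the groups did not overlap in introns either. KO exceeded WT by 2.22 (SE 0.51) on the log2 scale of intron reads. Because this is the contrast that chose the gene, in the same libraries, it is a description and not separate evidence. For each 100 unique exon reads of Il10ra there were 5.41 and 12.6 intron reads in WT, and 14.1, 14.4, 28.2 and 19.8 in KO. Over the 9707 genes tested in both readouts that number also differed between libraries, at 76.6 and 82.9 in WT and 65.5, 85.1, 109 and 133 in KO. Its 2 highest values belong to KO replicates 3 and 4, where the rRNA share was also highest. Reads of Il10ra across exon junctions, which mark spliced RNA, were at 5.78 and 3.39 in WT and at 11.5, 7.31, 7.68 and 5.87 in KO, as CPM over the scaled expression library sizes. The lowest KO value there was close to the higher WT value.

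**Figure D2:**
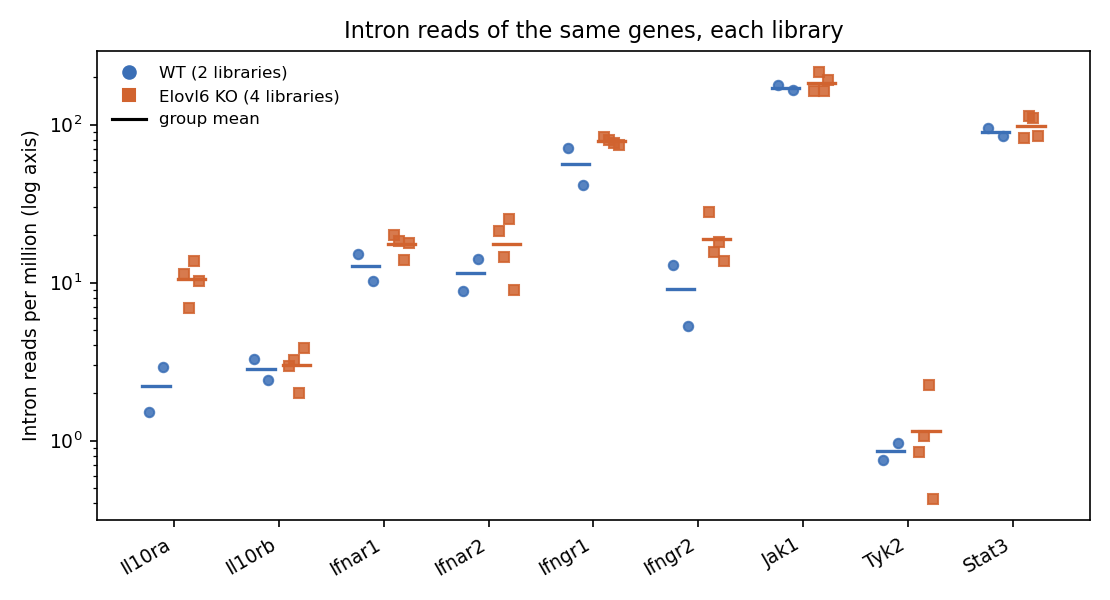
Unique intron reads of the 9 genes in each library, as CPM of intron reads on a log axis. Circles are the 2 WT libraries, squares the 4 KO libraries and bars the group means. The Il10ra squares lie at 6.90 to 13.7 and its circles at 1.51 and 2.92, and Tyk2, which was too low to test, has 1 to 9 reads per library.

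Il10rb encodes the partner chain of the interleukin-10 receptor, which carries Tyk2 and also serves the receptors for interleukin-22 and the type III interferons. It was at 38.0 and 38.8 CPM in WT and at 39.3, 48.2, 41.9 and 39.6 CPM in KO. The KO libraries were all higher, but 3 of them by less than 4 CPM. Of its exon reads, 71.9% were placed uniquely. The groups overlapped in unique exon reads, at 34.4 and 37.0 CPM in WT and 35.7 to 41.7 CPM in KO, and in total exon reads, at 45.4 and 54.2 CPM in WT and 49.9 to 57.2 CPM in KO. Its log2 fold change in expression counts was 0.14 (95% interval -0.26 to 0.54, adjusted p = 0.828), so a rise of the size seen for Il10ra lies outside its interval. Intron reads were few, 8 to 21 per library, and gave a log2 fold change of 0.06 with a wide interval of -1.37 to 1.5.

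Per kilobase of exon, the scale on which genes can be set side by side, Il10ra was at 0.876 and 0.694 times the level of Il10rb in WT. In KO replicates 1 to 4 it was at 2.09, 1.48, 1.77 and 1.63 times that level. Il10ra was thus the less abundant chain transcript of the pair in both WT libraries and the more abundant in all 4 KO libraries. From the authors' deposited RPKM, which count total exon reads, the ratio was 0.732 and 0.497 in WT and 1.59, 1.24, 1.35 and 1.29 in KO. This ratio contains the value that chose Il10ra and was not tested.

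The type I interferon receptor is formed by Ifnar1, which carries Tyk2, and Ifnar2, which carries Jak1. Ifnar1 was at 120 and 112 CPM in WT and at 152, 119, 134 and 107 CPM in KO, with overlapping groups. Ifnar2 was at 86.7 and 70.9 CPM in WT and at 91.2, 93.1, 98.1 and 60.7 CPM in KO, again with overlap. Log2 fold changes in expression counts were 0.14 (95% interval -0.23 to 0.51, adjusted p = 0.812, edgeR) for Ifnar1 and 0.13 (95% interval -0.33 to 0.59, adjusted p = 0.870) for Ifnar2. The ratio of the chains per kilobase, Ifnar1 over Ifnar2, was 0.786 and 0.895 in WT and 0.942, 0.721, 0.774 and 1.0 in KO, with overlap. From the authors' deposited RPKM it was 0.552 and 0.550 in WT and 0.524, 0.459, 0.520 and 0.496 in KO, lower throughout and without overlap, so this ratio depends on the reads counted and was not tested. Of the exon reads of Ifnar2, 58.1% were placed uniquely, and with the remainder counted its log2 fold change was 0.28.

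The interferon-gamma receptor joins the ligand-binding chain Ifngr1, which carries Jak1, to the signalling chain Ifngr2, which carries Jak2. Ifngr2 was at 29.7 and 24.2 CPM in WT and at 48.4, 35.5, 45.0 and 41.1 CPM in KO. Every KO library was above both WT libraries. Its log2 fold change in expression counts was 0.66 (SE 0.21, 95% interval 0.19 to 1.12), with an unadjusted p of 0.00972 and an adjusted p of 0.390, so it did not pass. Intron reads of Ifngr2 were at 12.9 and 5.35 CPM in WT and at 28.1, 15.7, 18.2 and 13.6 CPM in KO, without overlap. KO replicate 4 had 32 such reads and WT replicate 1 had 51, in libraries of 3472881 and 3599435 intron reads. The lack of overlap thus rested on the TMM factors, 0.6797 for KO replicate 4 and 1.107 for WT replicate 1. The log2 fold change in intron reads was 1.06 (SE 0.40, adjusted p = 0.681, edgeR), which did not pass either.

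Ifngr1 was at 170 and 203 CPM in WT and at 160, 162, 123 and 178 CPM in KO. KO replicate 4 lay between the WT libraries and the other KO libraries lay below both. Expression counts gave a log2 fold change of -0.26 (95% interval -0.62 to 0.10, adjusted p = 0.624, edgeR). In intron reads the KO libraries were all higher, at 74.6 to 83.4 CPM against 71.1 and 41.6 in WT. This too rested on the TMM factors, as KO replicate 4 had 175 such reads and WT replicate 1 had 282. Intron reads gave a log2 fold change of 0.48 (95% interval -0.02 to 0.98, adjusted p = 0.746). Per kilobase, Ifngr2 was at 0.150 and 0.103 times the level of Ifngr1 in WT, and at 0.260, 0.188, 0.315 and 0.199 times that level in KO. The ratio was therefore higher in every KO library, and Ifngr2 remained the scarcer transcript in all 6 libraries. The difference in this ratio was not tested.

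**Figure D3:**
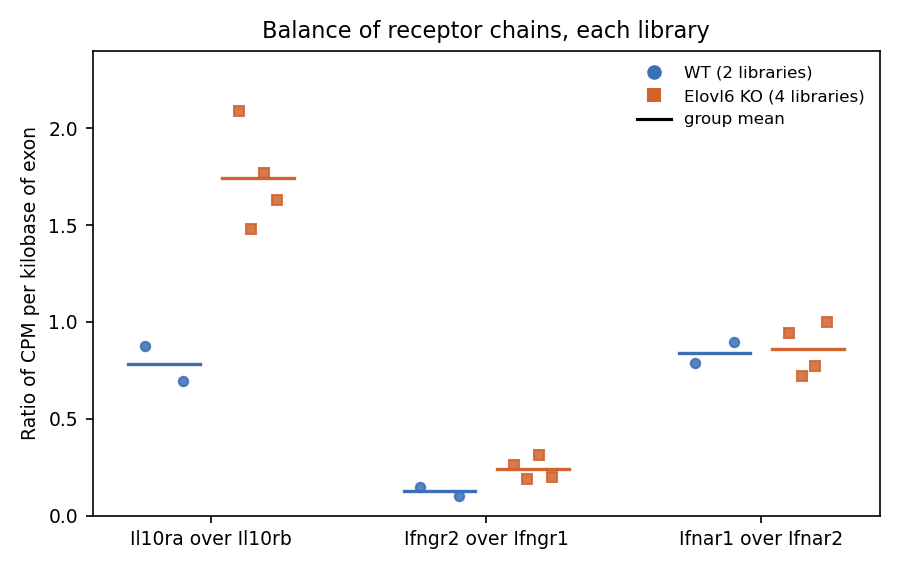
Ratio of the 2 chains of each receptor in each library, from CPM per kilobase of exon. Circles are the 2 WT libraries, squares the 4 KO libraries and bars the group means. The ratio of Il10ra over Il10rb is below 1 in WT and 1.48 to 2.09 in KO, that of Ifngr2 over Ifngr1 is higher in KO at 0.188 to 0.315, and that of Ifnar1 over Ifnar2 overlaps between groups on this scale, though not in the deposited RPKM.

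The kinases and the transcription factor behind these chains gave 0 calls. Jak1, the kinase shared by the ligand-binding chains, was at 484 and 494 CPM in WT and at 515, 554, 508 and 464 CPM in KO. Tyk2, the kinase of the partner chains of the interleukin-10 and type I interferon receptors, was at 36.1 and 33.3 CPM in WT and at 34.7, 40.3, 35.6 and 23.5 CPM in KO. Stat3, the main transcription factor activated by the interleukin-10 receptor, was at 307 and 320 CPM in WT and at 262, 305, 324 and 240 CPM in KO. The groups overlapped for all 3 genes. Log2 fold changes in expression counts were 0.06 for Jak1 (95% interval -0.21 to 0.33, adjusted p = 0.895, edgeR), -0.04 for Tyk2 (95% interval -0.54 to 0.47, adjusted p = 0.975) and -0.15 for Stat3 (95% interval -0.47 to 0.18, adjusted p = 0.771). The sign for Tyk2 turned under 5 of 15 other settings. In intron reads Jak1 was at 0.09 (SE 0.22) and Stat3 at 0.13 (SE 0.22) on the log2 scale, and Tyk2 had too few reads to pass the filter.

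Of the 8 genes tested in intron reads, 0 passed an adjusted p of 0.05 in edgeR, where 0.0863% of 11585 genes were called (0.0777% with KO higher, 0.00863% with KO lower), and 0 in DESeq2 and limma-voom. Unadjusted, Il10ra, which was chosen for its difference, and 1 of the other 7, Ifngr2, were under 0.05 in edgeR, as were 6.85% of all genes. All 8 log2 fold changes in intron reads, that of Il10ra included, were above 0, as were 51.7% of those of all genes tested. Their median was 0.475 against 0.018 over all genes tested. The value of 0.06 for Il10rb turned sign under 3 of 13 other settings. The groups did not overlap for 3 of them, Il10ra, Ifngr1 and Ifngr2, and for 15.8% of all genes tested. For Ifngr1 and Ifngr2 this rested on the TMM factors. KO was above WT in each of the 3, which held for 8.11% of all genes, and below in 0, which held for 7.72%.

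Unique junction reads, as CPM over the scaled expression library sizes, gave another order for some genes, and were not tested. Stat3 was at 124 and 122 CPM in WT and at 87.8, 106, 106 and 76.8 CPM in KO. It was lower in every KO library although its expression counts overlapped. Ifnar1 was at 18.2 and 13 CPM in WT and at 28.0, 21.5, 22.0 and 19.6 CPM in KO, higher in every KO library, as was Il10ra. Over all genes tested, 7.76% were higher and 8.12% lower in every KO library by this measure. Il10rb was lower in every KO library, at 4.89 to 7.33 CPM against 10.7 and 9.12, and Tyk2 higher, at 14.7 to 21.3 CPM against 14.3 and 13.5. Both overlapped once junction reads not placed uniquely were counted.

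**Figure D4:**
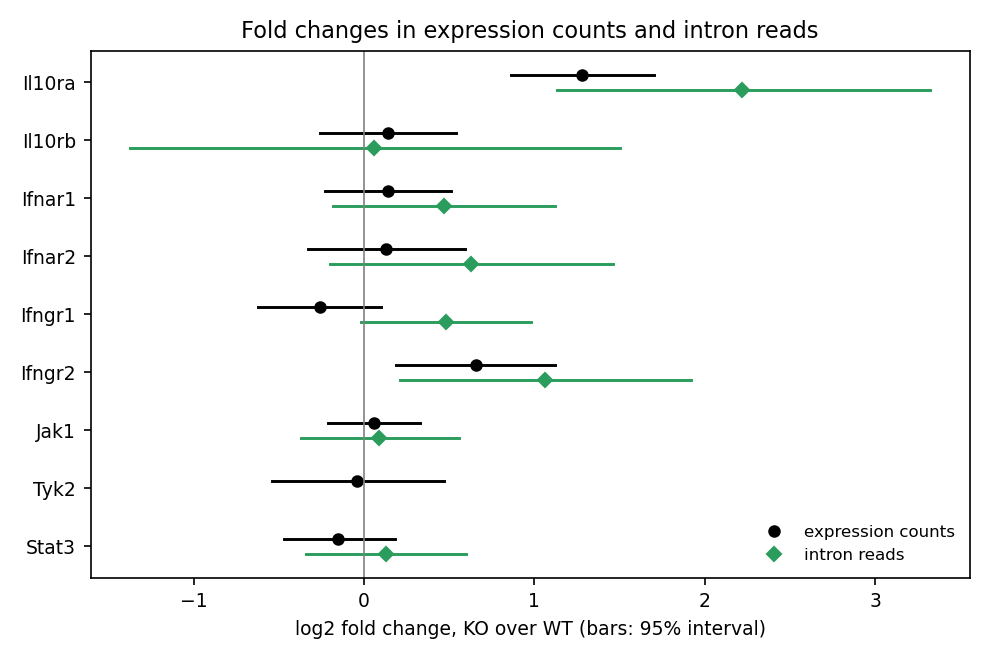
Log2 fold change of KO over WT for the 9 genes in expression counts (circles) and in intron reads (diamonds), with 95% intervals from edgeR. Il10ra is at 1.28 in expression counts and 2.22 in intron reads, Ifngr2 at 0.66 and 1.06, and the intervals of the other genes include 0.

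On the scale of CPM per kilobase, the order of levels in WT ran from Jak1 (67.7) and Ifngr1 (65.6), whose ranges overlapped, through Stat3 (32.9), Ifnar2 (23.7), Ifnar1 (19.8) and Il10rb (10.1) to Ifngr2 (8.14) and Il10ra (7.91), with overlapping ranges, and Tyk2 (5.06). In KO, Jak1 (70.6) stood above Ifngr1 (54.7), followed by Stat3 (29.7), Ifnar2 (25.8), Ifnar1 (21.8) and Il10ra (19.2). The KO ranges of these last 4 neighbours overlapped from each to the next. Ifngr2 (12.8) and Il10rb (11.1) came next with overlapping ranges, and Tyk2 (4.88) was again lowest. Il10ra thus held the eighth place in WT and the sixth in KO. In the authors' deposited RPKM, which also count exon reads not placed uniquely, it held the ninth place in WT and the sixth in KO. By that measure Tyk2 was seventh in WT and ninth in KO, Ifnar2 stood above Stat3 in both groups, and Il10rb stood above Ifngr2 in both.

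Of the receptor chain genes, 4 lie together on the plus strand of chromosome 16 (mm10). Ifnar2 (91372783 to 91405589) is followed after 574 bases by Il10rb (91406164 to 91425834), then by Ifnar1 (91485238 to 91507441) and Ifngr2 (91547072 to 91565169), within 192387 bases in all. Their log2 fold changes in expression counts were 0.13, 0.14, 0.14 and 0.66 in that order, so Ifngr2 at the end of the cluster stood above the other 3. A transcript model annotated as a gene of its own, Gm21970, overlaps Ifnar2 and Il10rb on the same strand. Its part in their share of reads not placed uniquely was not tested, and Tyk2, with no annotated gene overlapping on its strand, had a share of unique exon reads of 59.5%. Ifngr1 lies on chromosome 10, Jak1 on chromosome 4, Tyk2 on chromosome 9 and Stat3 on chromosome 11. The 3' end of Stat3 overlaps that of Stat5a on the other strand, and Tyk2 has an antisense gene, 1700084C06Rik, for which the use of strand in counting is not given in the sources used here.

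Around Il10ra, 24 other annotated genes lie within 250 kb, of which 16 had 0 counts in all libraries. The single one tested was Scn4b, a sodium channel subunit gene, with 1 and 13 counts in WT and 123, 24, 22 and 20 in KO. In CPM it was at 0.275 and 3.39 in WT and at 24.8, 5.01, 7.68 and 9.79 in KO. Its log2 fold change in expression counts was 2.67 (SE 0.88, adjusted p = 0.408, edgeR), with KO replicate 1 far above the others. Scn4b passed the filter on low counts only through its KO libraries, which favours a value above 0. Cd3e, a T cell receptor subunit gene within the same window, had 12 counts in WT replicate 1 and at most 1 in every other library.

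The genes whose centred log2 CPM profile over the 6 libraries lay nearest to that of Il10ra, among 9352 genes with a mean of at least 10 CPM, were Snrnp35, Slf1, Fam177a, Itgb5, Ccdc34 and Fos. Their root mean square differences from it were 0.068, 0.131, 0.154, 0.156, 0.181 and 0.196 on the log2 scale. Snrnp35, a protein gene of the minor spliceosome, was at 8.26 and 6.51 CPM in WT and at 20.8, 17.7, 17.8 and 14.2 CPM in KO. Itgb5, an integrin gene, was at 34.1 and 29.4 CPM in WT and at 67.4, 82.2, 73.3 and 62.2 CPM in KO. Fos, an AP-1 gene, was at 1435 and 1355 CPM in WT and at 4041, 3607, 3149 and 2210 CPM in KO. A list chosen for likeness to a gene that differs between genotypes differs in the same way by choice.

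Ligands of the family were next to absent. Of 24 ligand genes, 20 had 0 counts in every library, among them Ifnb1, Il22 and most interferon-alpha genes. Ifng had 1 count in all. Il10, the ligand of the Il10ra chain, had 0 and 3 counts in WT and 30, 16, 4 and 4 in KO. The ratio of KO to WT is 9.18 with a 95% counting interval of 2.98 to 45.9, which covers counting error only, and the gene did not pass over all genes (adjusted p = 0.441, edgeR). Of the 6 other class II receptor chain genes, Il20ra, a chain of the receptors for interleukin-19, interleukin-20 and interleukin-24, had 1 count in each WT library and 10, 8, 16 and 8 in KO. Its ratio of KO to WT is 10.7 with a 95% counting interval of 2.78 to 91.3 (adjusted p = 0.372, edgeR). Il10 and Il20ra passed the filter on low counts only through their KO libraries. The remaining 5 chain genes, Il20rb, Il22ra1, Il22ra2, Ifnlr1 and F3, had 8 to 33 counts over all libraries and were not tested.

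Among 9 genes for other JAK kinases, STATs and Irf9, 0 were called in edgeR, DESeq2 or limma-voom. The median log2 fold change of the 9 in expression counts was -0.07. In edgeR 1 of them had an unadjusted p under 0.05, as had 9.9% of all genes tested. That one was Stat5a, a factor downstream of thrombopoietin and other growth factors, at 185 and 192 CPM in WT and 128, 152, 170 and 146 CPM in KO (log2 fold change -0.34, adjusted p = 0.485, edgeR). Stat2, a transcription factor of type I interferon signalling, was at 52.9 and 43.2 CPM in WT and 59.5, 67.6, 63.5 and 54.3 CPM in KO (log2 fold change 0.35, adjusted p = 0.551). Jak3, the kinase of the common gamma chain receptors, was at 210 and 180 CPM in WT and at 138, 176, 179 and 152 CPM in KO. Stat5b was the most abundant of the 9 in CPM, at 235 and 250 in WT and 211 to 252 in KO.

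Inhibitors of the receptors and of JAK-STAT signalling gave 0 calls among 15 genes in all 3 tools and 0 at an unadjusted p under 0.05 in edgeR, with a median log2 fold change of 0.06. Socs1, which blocks Jak kinases, was the least abundant, at 7.43 and 9.64 CPM in WT and 8.03 to 10.2 CPM in KO. Ptpn6, a phosphatase that opposes Jak signalling, was the most abundant, at 489 and 376 CPM in WT and 378 to 485 CPM in KO. Pias2, a SUMO ligase named as an inhibitor of activated STATs, had the smallest p of these genes, at 34.4 and 38.3 CPM in WT and 43.2, 45.1, 45.0 and 44.5 CPM in KO (log2 fold change 0.29, adjusted p = 0.617, edgeR). Ptpn1 and Socs2 were next, with log2 fold changes of -0.14 and 0.25 and adjusted p of 0.795 and 0.808.

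Genes known to respond to interleukin-10 or STAT3 in macrophages and other cells were counted next. Of the 17 tested, 0 were called in edgeR, and 3 had an unadjusted p under 0.05, as had 9.9% of all genes tested. DESeq2 called 1 of the 17, Zfp36, and limma-voom 0. The log2 fold change was above 0 for 11 and below 0 for 6, with a median of 0.13. Zfp36, an mRNA decay factor that is also an immediate early gene, was at 688 and 545 CPM in WT and at 1176, 1287, 1011 and 804 CPM in KO (log2 fold change 0.80, adjusted p = 0.254, edgeR). Junb, likewise an immediate early gene, was at 486 and 448 CPM in WT and 845, 789, 540 and 495 CPM in KO (adjusted p = 0.481). Tnip3, an inhibitor of NF-kB signalling, went the other way, at 63.6 and 67.2 CPM in WT and 32.5, 45.3, 44.0 and 34.7 CPM in KO (log2 fold change -0.74, adjusted p = 0.301). Socs3, a direct STAT3 target, was at 49.8 and 52.6 CPM in WT and at 67.6, 48.2, 31.4 and 33.3 CPM in KO, with overlapping groups. Nfil3, a transcription factor gene and the least abundant of those tested, was at 8.53 and 5.99 CPM in WT and 17.6, 10.9, 10.8 and 13.2 CPM in KO (log2 fold change 0.86, adjusted p = 0.508).

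Interferon response genes gave 0 calls among 30 in edgeR, DESeq2 and limma-voom. In edgeR 4 of the 30 had an unadjusted p under 0.05, as had 9.9% of all genes tested. Of the 30, 18 were above 0, as were 51.0% of all genes tested, and 12 below, with a median log2 fold change of 0.10. The guanylate-binding protein genes Gbp7 and Gbp3 had the smallest p, with log2 fold changes of 0.62 (adjusted p = 0.372) and 0.53 (adjusted p = 0.390). Gbp2 of the same family was at 148 and 125 CPM in WT and at 104, 106, 119 and 98.9 CPM in KO. Ifi44 was at 25.1 and 30 CPM in WT and at 62.3, 31.5, 64.6 and 31.3 CPM in KO (log2 fold change 0.79, adjusted p = 0.482). Irf1, a transcription factor induced by interferon-gamma and the most abundant of the list, was at 296 and 248 CPM in WT and 236 to 394 CPM in KO, and Ifi47, the least abundant, at 3.85 and 3.39 CPM in WT and 2.79 to 5.43 CPM in KO.

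**Figure D5:**
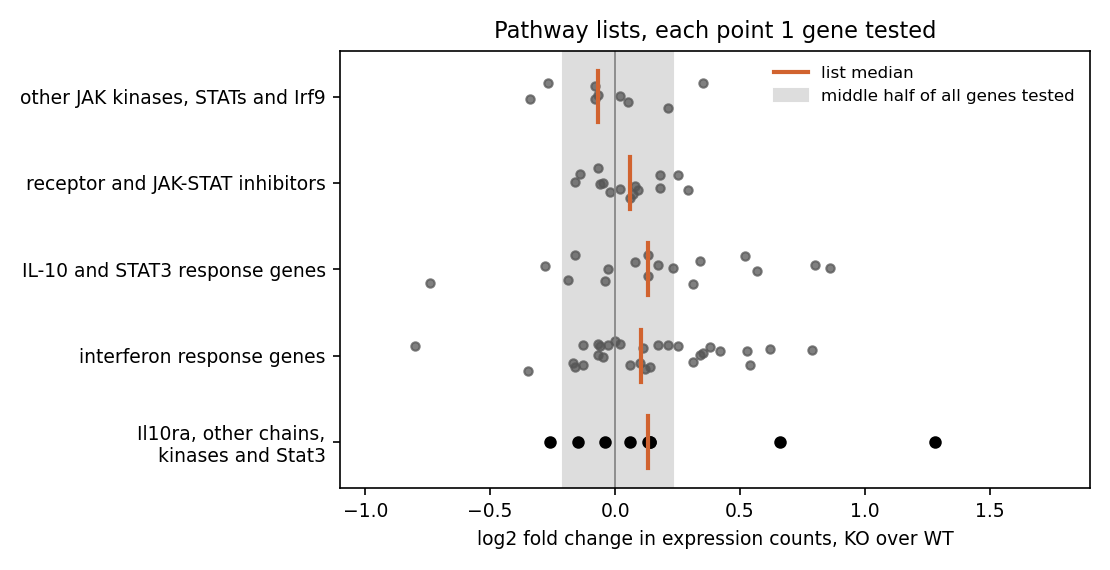
Log2 fold change of KO over WT in expression counts for each gene tested of 4 pathway lists and for the 9 genes. Vertical bars are list medians, which lie between -0.07 and 0.13, and the grey band spans the middle 50% of all genes tested, from -0.21 to 0.23. The 2 lists not drawn, of ligands and other class II chains, had 1 gene tested each, Il10 at 2.95 and Il20ra at 3.42.

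Il10ra is also expressed in mature T, NK, B and myeloid cells, so markers of these cells were set beside it. The summed level of 12 T and NK cell markers was 24.2 and 24.0 CPM in WT and 50.6, 39.2, 41.2 and 50.4 CPM in KO, higher in every KO library. Within the list, Cd3e, Cd3g, Cd3d and Trac, which define T cells, had 4 to 14 counts over all libraries, and the higher values came mainly from Cd4 and Nkg7. Cd4 was at 3.58 and 7.03 CPM in WT and at 19.2, 11.9, 17.8 and 16.1 CPM in KO, and Nkg7 at 7.43 and 9.64 CPM in WT and 21.6, 12.3, 13.6 and 19.6 CPM in KO. Ncr1, which defines NK cells, had 0 CPM in both WT libraries and 1.47 to 3.76 CPM in KO. Other genes of NK and cytotoxic cells in the list overlapped between groups, with Il2rb at 5.23 and 1.3 CPM in WT and 0.349 to 4.4 CPM in KO, Klrb1c at 1.93 and 3.39 CPM in WT and 2.22 to 6.28 CPM in KO, and Gzma at or below 1.04 CPM in every library. The summed level of 10 dendritic cell markers was 625 and 644 CPM in WT and 701 to 1113 CPM in KO. Flt3, which early progenitors also express, was the most abundant of them in every library. It was at 309 and 344 CPM in WT and at 721, 626, 552 and 338 CPM in KO, with overlapping groups. B-lineage markers summed to 127 and 194 CPM in WT and 927, 153, 196 and 318 CPM in KO. All 10 B-lineage markers tested had a log2 fold change above 0, as had 51.0% of all genes tested. In edgeR 0 of the 10 were called, and 2 had an unadjusted p under 0.05, as had 9.9% of all genes tested. The 2 were Pax5, at 26.4 and 26.0 CPM in WT and 44.3 to 241 CPM in KO, and Ebf1, at 12.1 and 16.9 CPM in WT and 18.6 to 136 CPM in KO. Both were higher in every KO library, as were 10% of all genes tested. Of the 9 red cell markers, 4 were higher in every KO library, as were 10% of all genes tested. The 4 were Hbb-bs, Hba-a1, Hba-a2 (13.5 and 20.6 CPM in WT, 44.4 to 1126 CPM in KO) and Alas2 (2.48 and 2.87 CPM in WT, 8.67 to 146 CPM in KO). Of the 9, 6 had a log2 fold change above 0. The 3 below were Klf1 (-0.43), Epor (-0.01) and Car1 (-0.92), and 0 of the 9 were called in edgeR. Monocyte and macrophage markers summed to 287 and 281 CPM in WT and 233, 311, 220 and 1016 CPM in KO. Most of this was Lyz2, at 263 and 237 CPM in WT and at 182, 271, 182 and 897 CPM in KO. All 9 of these markers that were tested had a log2 fold change above 0, as had 51.0% of all genes tested. Their median was 0.82, and 0 had an unadjusted p under 0.05 in edgeR. KO replicate 4 was the highest library for each of them but Cd14. Cd14 among them, at 0.275 and 0 CPM in WT, passed the filter on low counts only through its KO libraries. Fcgr1 and Ms4a7, not tested, had lower means in KO. Markers of megakaryocytes and platelets summed to 210 and 199 CPM in WT and 61.9 to 158 CPM in KO, lower in every KO library. Of the 8 tested, 7 were below 0 and 1, Treml1, above. In edgeR 0 were called and 2 had an unadjusted p under 0.05, as had 9.9% of all genes tested. DESeq2 called 1 of them, Selp, among 87 calls over all genes. Selp was at 17.9 and 17.7 CPM in WT and 2.45 to 6.63 CPM in KO (log2 fold change -2.04, adjusted p = 0.160, edgeR). The part of these cells in the level of Il10ra was not tested.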

How the data were processed

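RNA was extracted with Trizol and made into strand-marked libraries, per the labels' protocols, and mm10 is the build that the submitters' processing notes name. Which aligner and counter were used is not stated in the labels or headers. The table deposited by the authors holds read counts per gene and library (expression counts, and unique and total exon, junction and intron reads) and the authors' RPKM. It also holds the deposited p-values, raw and adjusted, and a fold score with sign, from a test called EDGE in the file headers. In every case (100%) an expression count equals the unique exon reads plus the junction reads not placed uniquely. A further 42 value columns of libraries were not used.

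The test on counts was that of edgeR 4.0.16 under R 4.3.3 (filterByExpr, TMM, quasi-likelihood F test on genotype, 6 libraries), with Benjamini-Hochberg adjustment over all genes kept at a threshold of 0.05. The 95% intervals use the moderated degrees of freedom. Intron reads were tested alike with their own scaling. CPM per kilobase uses the exon length deposited. Positions were raised by 1 at the start. Gene types and strands come from GENCODE M21.

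The genes and lists were chosen with earlier results of these data known. Named list genes are those called, the 3 with the smallest p, and the most and least abundant tested. Further ones (Gbp2, Socs3, Cd3e, Ifng and the marker genes) were chosen after their values were seen. Alternatives were DESeq2 1.42.0, its size factors in edgeR, limma-voom (limma 3.58.1) with quality weights, 2 other filters, libraries left out, a replicate block and other read classes; total intron reads, chain ratios from RPKM and overlap by exon read class were added after the data were seen. The deposited RPKM equal total exon reads per kilobase and mapped reads (100% of values above 0, within 1%). The scripts were tested on simulated data. There, 31.3% of genes changed 2-fold were called in expression counts and 22.4% in intron reads. Of all calls, 10.2% and 7.69% were genes left unchanged. A gene not called may therefore still differ. Depth, at 2121240 to 5137628 counts per library, limits genes with few reads, and counting intervals cover counting error only.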

Additional observations from a re-analysis of the deposited data

How the results depend on the processing

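With 2 WT libraries and 2121240 to 5137628 counts per library, calls are few and depend on the test. Expression counts gave 19 called genes. The count was 87 with DESeq2, 9 with limma-voom, 307 with no filter and 33 without KO replicates 3 and 4. With 1 library left out it ran from 2 (WT replicate 1 out) to 30 (KO replicate 4 out), with 10, 12 and 11 when WT replicate 2, KO replicate 2 or KO replicate 3 was the one left out. Intron reads gave 10, against 21 with DESeq2, 2 with limma-voom, 64 with no filter. Leaving out 1 library gave 2 (WT replicate 2 out) to 14 (KO replicate 4 out), and 3 with WT replicate 1 out.

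The log2 fold change of Il10ra in expression counts stayed between 1.13 and 1.44 under 15 alternatives. It was not called by limma-voom (1.28, adjusted p = 0.0696), without KO replicates 3 and 4 (1.36) and without every single library other than KO replicate 4 (1.13 to 1.44). In intron reads it passed with no filter only (2.22, adjusted p = 0.025). Fewer libraries were fitted where they were left out, and otherwise the cause was not tested.

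In a fit with a replicate block over WT and KO libraries 1 and 2, 34 genes were called and Il10ra was at 1.36 (adjusted p = 0.112). Libraries sharing a number did not deviate together (correlation -0.094), so the numbers are not taken as a pairing. This is 1 value for both pairs, because each group was centred on its 2 libraries.

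None of the other 8 genes passed under these alternatives in expression counts, nor any of the 7 tested in intron reads, where Tyk2 was not tested. Values near 0 changed sign. Tyk2 in expression counts was at 0.01 with limma-voom, 0.12 both with the replicate block and without KO replicates 3 and 4, and -0.14 to 0.08 with 1 library left out (0.02 for WT replicate 1, 0.08 for KO replicate 4). Ifnar2 ran from -0.01 to 0.28 with 1 library left out, the lowest being for WT replicate 2. In intron reads Il10rb was at -0.0006 with limma-voom and from -0.14 to 0.3 with 1 library left out, below 0 for WT replicate 2 and for KO replicate 4 (-0.05). A filter at a mean of 5 CPM left Il10rb without an intron value.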
